A study of Homo sapiens with 4 samples.

Results

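The enzymes described here make, convert and inactivate androgens inside a prostate cell. They were taken as 10 named genes (STS, SRD5A1, SRD5A3, AKR1C3, HSD17B6, HSD17B11, UGT2B17, UGT2B15, UGT2B11 and UGT2B28) by their symbols from the 60675 genes of the count files, and all 10 were found. RNA was sequenced from LNCaP, an androgen-responsive human prostate cancer line derived from a lymph node metastasis, grown in phenol red-free medium with dialyzed or charcoal-stripped serum. All 4 libraries came from cells given 1 nM R1881, a synthetic androgen, for 72 h. In 2 libraries the cells also received vehicle (DMSO), and in the other 2 they received 50 µM CPI-455, an inhibitor of the KDM5 family of histone H3 lysine 4 demethylases. No library was made without androgen, and all come from 1 cell line. The study describes the replicates as biological. Nothing more is said of how the cultures were separated, so the p-values measure only the spread between these libraries.

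A prostate cell sets its own androgen level with enzymes that work in opposite directions. Steroid sulfatase (STS) frees dehydroepiandrosterone from its circulating sulfate, AKR1C3 reduces androstenedione to testosterone, the 5α-reductases convert testosterone to the more potent dihydrotestosterone, and HSD17B6 can return an inactive androstanediol to dihydrotestosterone. Loss of androgen runs through oxidation at carbon 17, to which HSD17B11 contributes, and through the UDP-glucuronosyltransferases of the UGT2B family, which attach glucuronic acid to androgens and their metabolites so that they leave the cell. UGT2B15 and UGT2B17 are the main androgen-conjugating members in prostate cells, and their transcripts are known to be repressed by androgen in LNCaP. The measurements here are of transcripts, not of steroids.

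The UGT2B genes lie side by side on chromosome 4 and resemble each other, and their counts have to be read with that in mind. An internal exon of 149 bases, the second from the 5′ end of each gene model, is shown because it has the same length in all 4 genes and separates them into 2 pairs. The sequences were read from GRCh38 on the strand of the gene, at chr4:68565572-68565720 (minus strand) for UGT2B17, chr4:68668040-68668188 (minus) for UGT2B15, chr4:69212573-69212721 (minus) for UGT2B11 and chr4:69282514-69282662 (plus) for UGT2B28. Capitals mark the bases that differ from UGT2B17.
UGT2B17: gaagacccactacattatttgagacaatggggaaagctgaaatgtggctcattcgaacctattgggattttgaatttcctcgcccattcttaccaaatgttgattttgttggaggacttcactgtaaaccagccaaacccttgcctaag
UGT2B15: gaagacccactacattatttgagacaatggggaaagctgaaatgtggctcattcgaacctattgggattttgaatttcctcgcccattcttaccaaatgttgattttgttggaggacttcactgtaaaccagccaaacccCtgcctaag
UGT2B11: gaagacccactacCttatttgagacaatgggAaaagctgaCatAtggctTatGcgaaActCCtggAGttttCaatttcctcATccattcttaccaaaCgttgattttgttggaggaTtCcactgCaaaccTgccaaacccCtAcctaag
UGT2B28: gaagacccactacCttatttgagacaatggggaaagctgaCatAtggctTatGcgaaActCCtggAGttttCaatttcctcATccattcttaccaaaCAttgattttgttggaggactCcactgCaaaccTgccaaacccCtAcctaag
UGT2B15 differed from UGT2B17 at 1 of the 149 bases (99.3% identical), whereas UGT2B11 differed at 21 (85.9%) and UGT2B28 at 20 (86.6%). UGT2B11 and UGT2B28 differed from each other at 3 bases (98.0%). The next exon, of 132 bases, was identical in UGT2B15 and UGT2B17.

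The authors counted fragments on exons and left out fragments that matched several places, so the part of a gene that can be measured depends on how much of it is unique. Among windows of 50 bases within exons, 24.4% of those of UGT2B17 and 25.4% of those of UGT2B15 occurred at more than 1 place in the genome, as did 41.0% for UGT2B11 and 40.8% for UGT2B28. With windows of 100 bases these shares were 9.50% and 9.41% for UGT2B17 and UGT2B15, and 8.47% and 16.0% for UGT2B11 and UGT2B28. Of the other 6 enzymes, none exceeded 6.38% at 50 bases (SRD5A1), and HSD17B6 had no repeated window. Most of each UGT2B gene was therefore unique in sequence at these window lengths, and the read length was not given in the sources used here. The gene model of UGT2B15 also runs across UGT2B17 and shares 114 exon bases with it, and fragments lying there were assigned to neither gene.

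**Figure D1:**
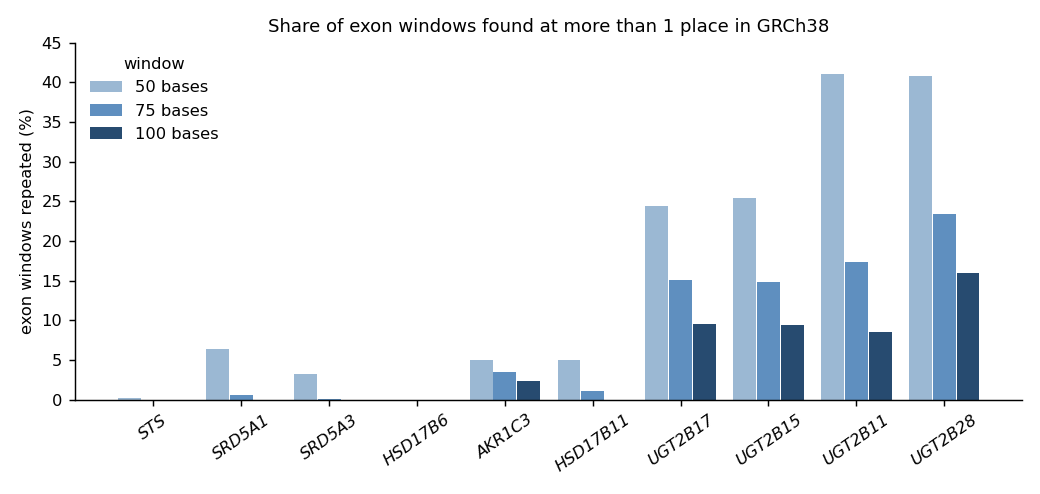
Share of exon windows (%, y axis) of each of the 10 enzymes (x axis) that occur at more than 1 place in GRCh38 on either strand, for windows of 50, 75 and 100 bases (bar colours). The 4 UGT2B genes stand above the other enzymes, from 24.4% to 41.0% at 50 bases and from 8.47% to 16.0% at 100 bases.

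The vehicle libraries held 19623553 and 20690819 counted fragments and the CPI-455 libraries 9522920 and 5401588. After normalization 3 counts, the limit below which a gene was taken as not measurable, were 0.142 and 0.137 CPM (normalized counts scaled to library size) with vehicle and 0.337 and 0.595 CPM with CPI-455. The CPI-455 libraries also differed in composition, with 4.95% and 6.49% of counts on MALAT1 against 0.114% and 0.0884% with vehicle, and they correlated less with each other (0.965 on the log2 scale across genes) than the vehicle libraries did (0.995). Of 11 markers of luminal prostate and LNCaP cells all were measured, and 8 were called lower with CPI-455 (72.7%, against 21.3% of all tested genes). KLK2 went the other way, from 84.2 and 64.4 CPM with vehicle to 108 and 111 CPM with CPI-455, and was not called. The summed level of the 11 was 1093 and 1003 CPM with vehicle against 407 and 461 CPM with CPI-455. The basal marker KRT5 was at 0 in all 4 libraries, and the 3 basal markers summed to 0.189 and 0.275 CPM with vehicle and 1.24 and 1.19 CPM with CPI-455, all from KRT14 in one CPI-455 library (11 and 0 counts) and from TP63 in the other (0 and 6). Neither gene was high enough to be tested. The 7 stromal, endothelial and leukocyte markers summed to 6.20 and 5.95 CPM with vehicle and 11.6 and 7.73 CPM with CPI-455, mostly from COL1A1 (10.1 and 7.73 CPM). The part of these shifts in the changes described next was not tested.

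With vehicle, the 10 enzymes spanned a wide range of levels. Per kilobase of exon, HSD17B11 was highest, at 8.65 and 8.69 CPM per kilobase in the replicates, followed by SRD5A3 at 5.84 and 5.65. SRD5A1 (3.10 and 3.42), HSD17B6 (2.79 and 3.51) and UGT2B17 (2.87 and 3.22) came next and overlapped each other. STS (1.80 and 1.43) and UGT2B15 (1.51 and 1.15) overlapped as well. UGT2B11 was lower, at 0.440 and 0.277 CPM per kilobase, and UGT2B28 lower again, at 0.0730 and 0.124. AKR1C3 was close to absent, with 0 counts in one vehicle library and 1 in the other.

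**Figure D2:**
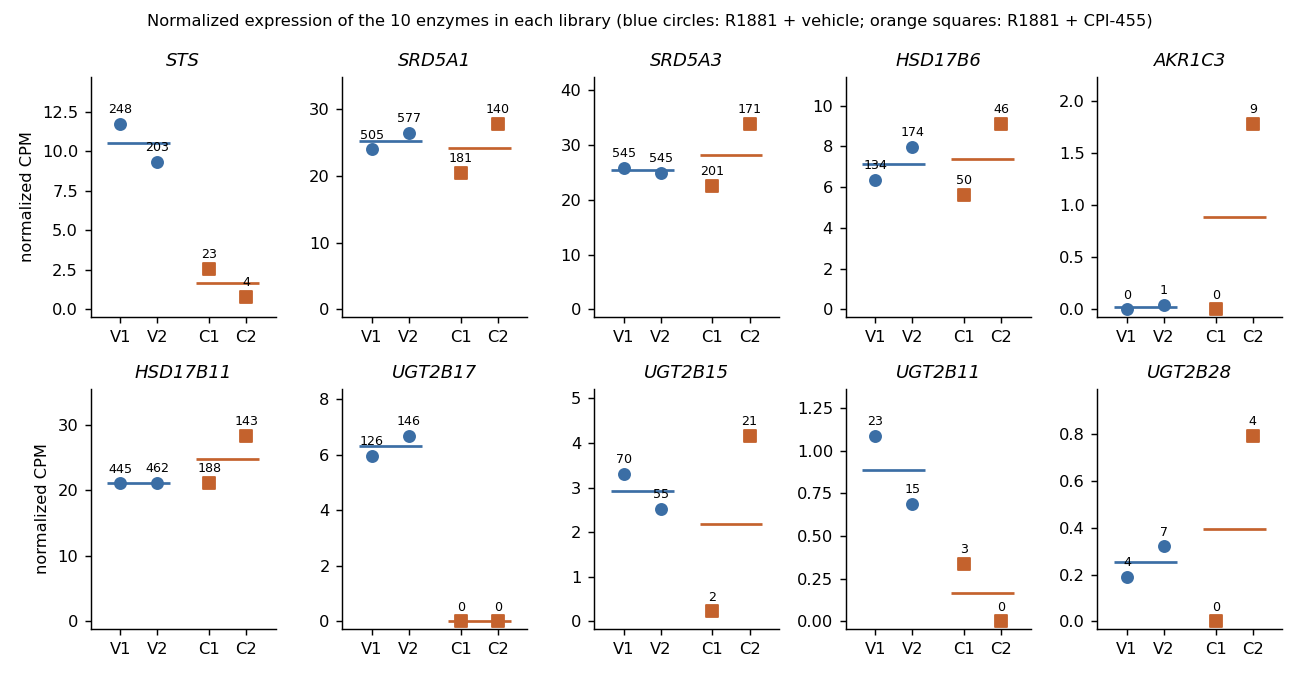
Normalized expression (CPM, y axis starting at 0 and scaled for each gene) of the 10 enzymes in the vehicle libraries (V1, V2, blue circles) and the CPI-455 libraries (C1, C2, orange squares), with the count printed at each point and a line at the mean of each group. STS, UGT2B17 and UGT2B11 are lower in both CPI-455 libraries than in either vehicle library, and UGT2B15, UGT2B28 and AKR1C3 differ mainly between the CPI-455 replicates.

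The comparison asks which of these enzymes differed when the KDM5 inhibitor was added to the androgen. Fold changes are CPI-455 over vehicle, so negative values are lower with CPI-455, and a gene was called where it changed at least 2-fold with an FDR under 0.05 in edgeR's quasi-likelihood test across all genes. Of the 10 enzymes, 8 had enough counts to be tested. STS and UGT2B17 were called lower, none was called higher, and 6 were not called. Over all 17600 tested genes 21.3% were called lower and 21.0% higher, 42.4% in all, so 2 of 8 called lower (25.0%) is close to the background. Normalized values of the groups did not overlap for 3 of the 8 (STS, UGT2B17 and UGT2B11), against 81.9% of all tested genes. The median log2 fold change was -0.34 over the 8 enzymes and -0.04 over all tested genes. UGT2B17 and UGT2B11 passed the filter on low counts only through the vehicle libraries. UGT2B15 could not have passed it without them, as its 2 counts in CPI-455 replicate 1 lay under the filter. The numbers of enzymes called or not overlapping therefore describe the tested enzymes and support nothing further. In bulk RNA, fewer cells with a transcript and less transcript per cell cannot be told apart.

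STS (ENSG00000101846, X:7219456-7354810) opens the route from circulating sulfated precursors, and it was one of the 2 enzymes called lower. It had 248 and 203 counts with vehicle, against 23 and 4 with CPI-455, or 11.7 and 9.30 CPM against 2.59 and 0.793 CPM. Both CPI-455 libraries lay below both vehicle libraries, and the replicates with CPI-455 differed from each other more, in proportion, than those with vehicle. The mean was 10.5 ± 1.73 CPM with vehicle and 1.69 ± 1.27 CPM with CPI-455 (SD, n = 2 each). The fitted decrease was 5.63-fold, a log2 fold change of -2.49 (SE 0.43, 95% interval -3.47 to -1.51, edgeR FDR = 0.000859). With CPI-455 replicate 1 left out the log2 fold change was -3.72, and with CPI-455 replicate 2 left out it was -2.02. STS was called in all 13 alternative fits in which it was tested. Its exons shared no base with another gene and only 0.232% of their 50-base windows were repeated, so the losses from ambiguous fragments described for the UGT2B genes were small here.

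Neither SRD5A1 nor SRD5A3, the tested genes of the 5α-reductase family, was called, and the groups overlapped for both. SRD5A1 (ENSG00000145545, 5:6633343-6674386), which converts testosterone to dihydrotestosterone, had 505 and 577 counts with vehicle, against 181 and 140 with CPI-455, or 23.9 and 26.4 CPM against 20.4 and 27.8 CPM. The groups overlapped, with the highest and the lowest values both in the CPI-455 libraries. The log2 fold change was -0.08 (95% interval -0.53 to 0.36, FDR = 0.735), and its sign turned under upper-quartile normalization (0.0933). SRD5A3 (ENSG00000128039, 4:55346109-55373096), a family member that is best known for reducing polyprenol to dolichol for protein glycosylation, had 545 counts in each vehicle library and 201 and 171 with CPI-455, or 25.8 and 25.0 CPM against 22.6 and 33.9 CPM. The CPI-455 values lay on either side of the vehicle values. Its log2 fold change was 0.13 (95% interval -0.34 to 0.60, FDR = 0.602), with the sign turning when libraries were scaled by their totals (-0.0564). Both intervals lie inside a 2-fold change in either direction, and they do not show that the levels were equal. SRD5A2, the 5α-reductase typical of normal prostate, was counted at 10 and 13 with vehicle, against 0 and 2 with CPI-455 and was too low to be tested.

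HSD17B6 and HSD17B11 act at opposite ends of the androgen pool and neither was called. HSD17B6 (ENSG00000025423, 12:56752161-56787790) had 134 and 174 counts with vehicle, against 50 and 46 with CPI-455, or 6.34 and 7.97 CPM against 5.62 and 9.12 CPM. The vehicle values lay between the CPI-455 values, and the log2 fold change was 0.01 (95% interval -0.74 to 0.75, FDR = 0.986). HSD17B11 (ENSG00000198189, 4:87336610-87391386), which oxidises 17β-hydroxysteroids, had 445 and 462 counts with vehicle, against 188 and 143 with CPI-455, or 21.07 and 21.15 CPM against 21.14 and 28.4 CPM. CPI-455 replicate 1 lay between the vehicle libraries and replicate 2 above them. The log2 fold change was 0.21 (95% interval -0.23 to 0.66, FDR = 0.371). It stayed positive and not called in all 14 alternative fits.

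AKR1C3 (ENSG00000196139, 10:5035354-5107686) was hardly measured in these cells. It had 0 and 1 counts with vehicle, against 0 and 9 with CPI-455, so every count but 1 came from CPI-455 replicate 2, where it reached 1.78 CPM. The ratio of the summed, depth-scaled counts was 27.8, with a counting interval from 3.85 to 1216, and it rests on that single library. The paralogue AKR1C2, which reduces dihydrotestosterone, had the same distribution, with 1 and 0 counts with vehicle, against 0 and 8 with CPI-455, and AKR1C1 and AKR1C4 were at 0 throughout. Such counts in 1 replicate were more common with CPI-455 over all genes. At least 9 counts in one replicate and 0 in the other were found for 19 and 15 genes in the vehicle libraries. These were 0.106% and 0.0843% of the genes with at least 9 counts. In CPI-455 replicates 1 and 2 the numbers were 638 and 257, or 3.82% and 1.71%. The CPI-455 replicates also differed more from each other in depth, and the part of depth in these numbers was not tested. The AKR1C3 gene model also shared 991 of its 4532 exon bases with other genes, and fragments there were not counted. No difference between the groups can be read for AKR1C3.

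UGT2B17 (ENSG00000197888, 4:68537184-68568527), the androgen-conjugating enzyme with the highest level of its family here, was the other enzyme called lower. It had 126 and 146 counts with vehicle, or 5.97 and 6.69 CPM, and 0 counts in both CPI-455 libraries. At the vehicle level, 56.2 and 31.9 counts would have been seen in the CPI-455 libraries, so a transcript at that level was well within reach of the depth. Against a limit of 3 counts in each CPI-455 library, UGT2B17 was at least 13.6-fold lower with CPI-455 (log2 -3.76). The fitted log2 fold change of -9.49 (FDR = 8.49e-05) depends on the prior count added to the zeros and is no measure of the size. UGT2B17 was called in all 13 alternative fits in which it was tested. It passed the filter only through the vehicle libraries, and these fits share its counts of 0, so the repeated calls support nothing further.

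UGT2B15 (ENSG00000196620, 4:68537413-68670628), nearly identical to UGT2B17 in the exons shown above, followed it in only one of the CPI-455 libraries. It had 70 and 55 counts with vehicle, against 2 and 21 with CPI-455, or 3.31 and 2.52 CPM against 0.225 and 4.16 CPM. CPI-455 replicate 1 was the lowest of the 4 libraries and replicate 2 the highest. The log2 fold change was -0.59 (SE 0.86, 95% interval -2.53 to 1.34, FDR = 0.571), and neither a change nor its absence can be read from it. Without CPI-455 replicate 2 it was -3.65 and would have been called (FDR = 9.41e-06), and without CPI-455 replicate 1 it was 0.51. In CPI-455 replicate 2 the closely related pair thus stood at 21 counts for UGT2B15 and 0 for UGT2B17, against 55 to 70 and 126 to 146 with vehicle.

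UGT2B11 (ENSG00000213759, 4:69004618-69214731) and UGT2B28 (ENSG00000135226, 4:69280487-69423402), the other pair in sequence, were low in all libraries. UGT2B11 had 23 and 15 counts with vehicle, against 3 and 0 with CPI-455, or 1.09 and 0.687 CPM against 0.337 and 0 CPM. Its groups did not overlap, and both CPI-455 values were at or below the limit of 3 counts. The ratio of the summed, depth-scaled counts was 0.243, with a counting interval from 0.0481 to 0.767. The log2 fold change of -2.05 (SE 1.02, 95% interval -4.36 to 0.25, FDR = 0.108) was not called. The likelihood-ratio test of edgeR, which does not allow for uncertainty in the spread, called it (FDR = 0.0371). Without CPI-455 replicate 1 the log2 fold change was -6.84. The remaining CPI-455 count was 0, where 4.48 would have been seen at the vehicle level. That value depends on the prior count added to the zero and is no measure of the size. UGT2B28 had 4 and 7 counts with vehicle, against 0 and 4 with CPI-455, and it was too low to be tested. Its ratio was 1.12 with a counting interval from 0.260 to 3.78, so no difference was detectable at this depth. These intervals cover counting error only, and not the spread between cultures.

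**Figure D3:**
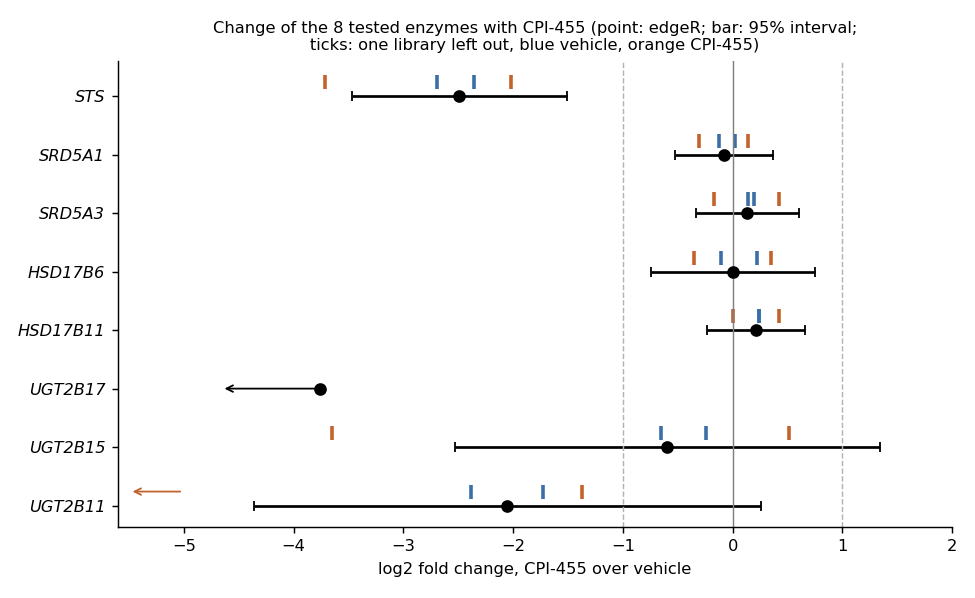
Log2 fold change of the 8 tested enzymes, CPI-455 over vehicle (x axis), with the edgeR estimate (black point), its 95% interval (bar) and the values with one library left out (ticks, blue for a vehicle library and orange for a CPI-455 library). UGT2B17 is drawn at its bound of -3.76 with an arrow, and dashed lines mark 2-fold. An orange arrow marks a value of -6.84 for UGT2B11 beyond the axis, which rests on a count of 0 and is no measure of the size. STS and UGT2B17 lie past 2-fold, whereas UGT2B15 moves from -3.65 to 0.51 with the CPI-455 library left out.

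The rest of the pathway was examined with 80 further genes of steroid synthesis, conversion, sulfation, hydroxylation, transport and glucuronidation, of which 78 were matched in the files and 37 were tested. With CPI-455, 8 were called lower (21.6%) and 6 higher (16.2%), 23 were not called, and the median log2 fold change was -0.16. Shares this near to those of all tested genes do not set the pathway apart. The remaining 41 genes were too low to be tested, 20 of them at 0 in every library. HSD3B1, which starts the route from dehydroepiandrosterone to androstenedione, was among those at 0.

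Among glucuronidation genes outside the 10 enzymes, 16 further UGT genes were in the files and only UGT8 and UGT3A2 were tested. UGT8, which makes galactosylceramide, had 149 and 155 counts with vehicle, against 0 and 4 with CPI-455, a log2 fold change of -4.53 (SE 0.75, FDR = 0.000626). The size is uncertain, at -3.14 without CPI-455 replicate 1 and -9.94 without CPI-455 replicate 2, where only the count of 0 remained. UGT8 could not have passed the filter without the vehicle libraries. UGT3A2 rose (9 and 10 counts against 12 and 20, log2 fold change 2.50, FDR = 0.0153). It passed the filter on low counts only through the CPI-455 libraries, where it was high, so the call supports nothing further. The call was lost in 3 of 13 alternative fits, each of them without 1 library. UGT2B4, UGT2B7 and UGT2B10, neighbours of the androgen-conjugating genes, had at most 12 counts in any library and 0 in both CPI-455 libraries. At the vehicle level, UGT2B4 would have had 3.50 and 1.98 counts in the CPI-455 libraries. UGT2B7 would have had 0.421 and 0.239, and UGT2B10 0.842 and 0.478, so no difference can be read from the zeros of UGT2B7 and UGT2B10. SLC35D1, which carries UDP-glucuronic acid into the endoplasmic reticulum where the UGT enzymes work, fell from 2082 and 2116 counts to 142 and 92, or from 98.6 and 96.9 CPM to 16.0 and 18.2 CPM (log2 fold change -2.53, SE 0.15, FDR = 1.51e-06). It was called in all 14 alternative fits. UGDH, the enzyme that makes UDP-glucuronic acid, was not called, with a log2 fold change of -0.84 (389 and 379 counts against 99 and 43, FDR = 0.0103).

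Of 7 tested genes for making steroids from cholesterol, 2 were called lower and 2 higher. POR, the reductase that supplies electrons to microsomal cytochromes P450, fell from 66.6 and 71.8 CPM to 29.2 and 26.4 CPM (log2 fold change -1.31, SE 0.15, FDR = 5.07e-05). CYP17A1, which converts pregnane steroids to androgen precursors, had 16 and 30 counts with vehicle and 0 in both CPI-455 libraries, at least 2.29-fold lower against the limit of 3 counts per library. It passed the filter only through the vehicle libraries and lost its call without vehicle replicate 2 (FDR = 0.0726). STARD3, a cholesterol transporter of late endosomes, rose from 56.1 and 52.8 CPM to 110.0 and 121 CPM (log2 fold change 1.08, FDR = 6.09e-05), and it lost its call in 2 of 14 alternative fits, with library totals (0.89) and without a filter (0.93). TSPO, a protein of the outer mitochondrial membrane, was higher at 67.2 and 42.6 CPM against 26.3 and 28.2 CPM (log2 fold change 1.03, FDR = 0.00196), and it lost its call in 7 of 14 alternative fits, among them the one with a length and GC trend removed (0.29).

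Of the 14 tested dehydrogenases related to HSD17B6 and HSD17B11, 2 were called lower and 3 higher. HSD17B12, which acts mainly in fatty acid elongation, was lower at 75.3 and 78.5 CPM against 159 and 167 CPM (log2 fold change -1.08, FDR = 3.91e-05) and lost its call in 3 of 14 alternative fits. HSD17B3, which makes testosterone from androstenedione in the testis, had 28 and 19 counts with vehicle and 0 in both CPI-455 libraries, at least 2.36-fold lower. It too passed the filter only through the vehicle libraries, and it lost its call without vehicle replicate 1 (FDR = 0.05555). HSD17B7, an enzyme of cholesterol synthesis that also reduces oestrone, rose from 7.72 and 6.96 CPM to 21.0 and 30.5 CPM (log2 fold change 1.80, SE 0.25, FDR = 0.00019). HSD17B14, which oxidises oestradiol and other 17β-hydroxysteroids, rose from 2.41 and 2.06 CPM to 10.3 and 9.32 CPM (log2 fold change 2.14, SE 0.34, FDR = 0.000449). RDH16, a close relative of HSD17B6, rose from 18 and 12 counts to 27 and 34 in the shallower libraries (log2 fold change 2.75, FDR = 0.00376). Its 12 counts in vehicle replicate 2 lay under the filter, so it was tested only with the help of the CPI-455 libraries. HSD17B7, HSD17B14 and RDH16 were called in all 14 alternative fits. As RDH16 was high in the CPI-455 libraries that it needed to be tested, its calls support nothing further.

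None of the 5 tested genes listed with steroid sulfation was called by edgeR, and their log2 fold changes ran from -0.93 to 0.56. Not all of them code for enzymes that attach sulfate. Of 3 tested steroid hydroxylases CYP3A5 was called lower (79 and 101 counts against 18 and 3, log2 fold change -1.54, FDR = 0.0314), and it lost its call in 6 of 13 alternative fits. Like UGT8, CYP3A5 could not have passed the filter without the vehicle libraries. Of the steroid transporters ABCC4, an exporter of organic anions that include steroid conjugates, was the one tested gene and fell from 129 and 117 CPM to 25.5 and 30.3 CPM (log2 fold change -2.15, SE 0.14, FDR = 2.88e-06). UGT3A2, RDH16, CYP17A1 and HSD17B3 lay below the level set for naming, UGDH was not called, and these genes, like the untested ones, were picked for mention once their values had been seen.

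**Figure D4:**
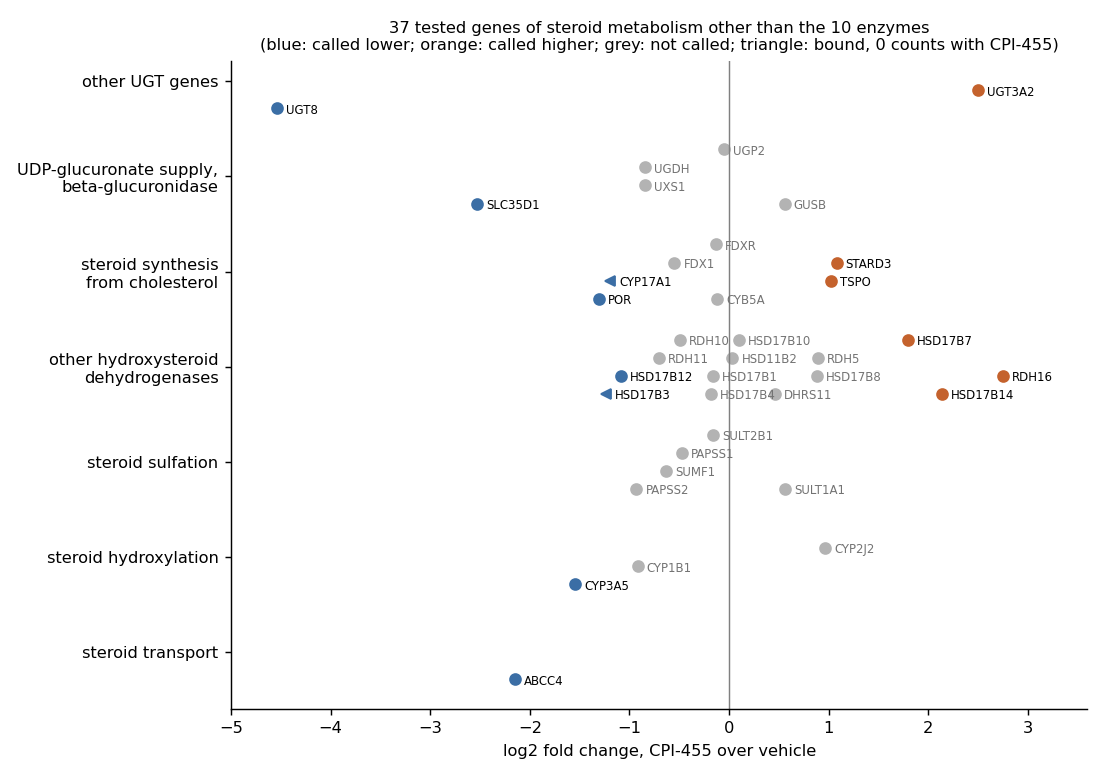
Log2 fold change, CPI-455 over vehicle (x axis), of the 37 tested genes of steroid metabolism other than the 10 enzymes, grouped by function (y axis), with 8 called lower in blue, 6 called higher in orange and 23 not called in grey. Triangles show CYP17A1 and HSD17B3 at their bounds, and UGT8, SLC35D1 and ABCC4 lie farthest to the left.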

How the data were processed

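The authors trimmed reads (TrimGalore), aligned them (STAR, GRCh38) and counted exonic fragments per gene (featureCounts v1.5.0-p1, Ensembl release 83). They deposited raw counts for each gene and library. By the file headers, strand was ignored, and neither multi-mapping fragments nor those on more than 1 gene were counted. The sample labels and the study's methods give different DMSO concentrations, and neither was used.

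Groups and replicates came from the labels. The members and gene lists were chosen with earlier results of these data known. Counts were fitted with edgeR 4.0.16 in R 4.3.3 (TMM, filterByExpr at a minimum of 10 counts, glmQLFit and glmQLFTest, no covariates), with Benjamini-Hochberg FDR over all tested genes. The study names edgeR without its test. CPM are scaled by TMM. Alternatives were other normalizations and filters, DESeq2 1.42.0, a replicate block, a length and GC trend (mgcv 1.9.3) and each library left out. Ratios of summed counts have exact 95% binomial intervals. Symbols were matched for 56558 genes. Every member was named, as was each other listed gene that was called and averaged at least 1 on the log2 CPM scale, and any tested paralogue of a member. One listed marker gene is not reported here.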

Additional observations from a re-analysis of the deposited data

How the results depend on the processing

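STS and UGT2B17 were called lower in every alternative fit in which they were tested, with log2 fold changes of STS from -3.72 to -2.01. UGT2B17 passed the filter only through the vehicle libraries, and these fits share its counts of 0, so its repeated calls support nothing further. A minimum of 10 counts in every library removed both STS and UGT2B17. It left 4 of the enzymes tested, 0 of them called lower, and 4 other pathway genes called lower. Scaling shifted the median log2 fold change of all tested genes from -0.04 to 0.14 (upper quartile) and -0.23 (library totals), and without a filter it was -0.41 over 33392 genes in place of 17600. Enzymes near 0 changed sign. SRD5A1 became 0.0933 with upper-quartile normalization and 0.41 with a length and GC trend removed, with or without the replicate block. SRD5A3 became -0.0564 with library totals and -0.02 without a filter. HSD17B6 became -0.18 with library totals, -0.15 without a filter, and -0.0324 with the trend removed (-0.0282 with the block too). None of these was called. With 1 library left out, the lone library was assumed to vary like the other group. The ranges were then -0.31 to 0.14 for SRD5A1, -0.17 to 0.42 for SRD5A3, -0.35 to 0.35 for HSD17B6 and -3.65 to 0.51 for UGT2B15. For UGT2B15 the sign turned only without CPI-455 replicate 1. Leaving out a vehicle library also turned the sign of SRD5A1 (0.0165 without replicate 2) and HSD17B6 (-0.105 without replicate 1). UGT2B11 was called with the likelihood-ratio test (-2.05). Without CPI-455 replicate 1 its value was -6.84, which rests on a count of 0 and is no measure of the size. Replicates that share a number deviated together at a correlation of 0.0496 across genes. Whether the cultures were handled in numbered pairs is not stated, and a single correlation cannot settle it. With a replicate block 3745 genes were called lower and 3422 higher, against 3756 and 3698 without it, and the calls of the 10 enzymes did not change. The smaller depth with CPI-455 limits the low enzymes most.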
